A study of Mus musculus with 6 samples.

Results

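The genes described here encode the proteasome, the protease that degrades ubiquitin-tagged proteins, and the proteins that load its peptides onto MHC class I molecules. They were taken as every probe set that the platform annotation gives 1 symbol beginning with Psma, Psmb, Psmc, Psmd, Psme, Psmf or Psmg, together with Tap1, Tap2, Tapbp, B2m, Erap1, Calr and Canx. Where a gene had several probe sets, only its brightest probe set, by the mean of all 6 arrays, was kept, which gave 57 genes of 19938 measured. Expression was measured on Affymetrix arrays in naive CD4 T cells. The cells came from mice of the Foxp3-GFP strain on C57BL/6, 6 weeks old, out of their peripheral lymph nodes. The gate for both was TCRβ+, CD4+ and CD8- with low CD44, no CD25 and no Foxp3, the latter read from the GFP reporter that marks regulatory T cells. One population carried Ly-6C, a lipid-anchored surface protein, and the other lacked it, with 3 arrays each. The labels call these biological replicates but name no mice, so p-values measure the spread between these samples, part of which may be technical. No treatment is given in the labels. The comparison asks whether transcripts of protein degradation and class I antigen processing differ between the populations, and every difference below is the mean of the Ly-6C-negative arrays less that of the Ly-6C-positive ones, on the log2 scale.

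A proteasome has a barrel of stacked rings, the outer ones built of alpha subunits and the inner ones of beta subunits, of which 3 kinds cut proteins. Cells exposed to interferon gamma, and many immune cells without it, replace these 3 with immunoproteasome subunits, which changes the peptides that are made. A regulatory cap of ATPases and non-ATPase subunits binds ubiquitin-tagged proteins and feeds them into the barrel. Peptides enter the endoplasmic reticulum through the TAP transporter, are trimmed there and are fitted onto class I molecules with the help of tapasin, calreticulin and calnexin.

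The RefSeq promoter table of build GRCm38.p6 held 52 windows for 48 of the 57 genes, each from 250 bases before the start of the gene to 50 bases after it. Both strands were searched for the core of the interferon-stimulated response element (GAAA, any 2 bases and GAAA again) and for TGACNNNGC, the antioxidant response element to which Nfe2l1 and Nfe2l2 bind. The interferon element was found in 7 of the 52 windows, or 13.5%, against 3.44% of all 32851 promoter windows. The antioxidant element was found in 7 windows, or 13.5%, against 12.4% of all. A match is a description of these letters and does not show a bound site. The 7 genes with an interferon element were B2m, Psme1, Erap1, Psmb3, Psmd4, Psmd9 and Psmg4. Windows are shown for the first 3, genes of class I processing, with the matching bases in capitals. The others, Psmb3, Psmd4, Psmd9 and Psmg4, encode proteasome subunits or assembly chaperones and are not shown. The windows lie at chr2:122147437-122147736 for B2m, chr14:55578244-55578543 for Psme1 and chr13:74639603-74639902 for Erap1, all on the plus strand.
B2m: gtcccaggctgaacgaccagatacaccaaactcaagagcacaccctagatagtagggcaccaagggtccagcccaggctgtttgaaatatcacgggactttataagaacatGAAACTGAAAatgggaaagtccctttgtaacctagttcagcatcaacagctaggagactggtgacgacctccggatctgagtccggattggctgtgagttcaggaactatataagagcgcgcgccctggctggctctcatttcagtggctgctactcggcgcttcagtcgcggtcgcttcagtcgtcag
Psme1: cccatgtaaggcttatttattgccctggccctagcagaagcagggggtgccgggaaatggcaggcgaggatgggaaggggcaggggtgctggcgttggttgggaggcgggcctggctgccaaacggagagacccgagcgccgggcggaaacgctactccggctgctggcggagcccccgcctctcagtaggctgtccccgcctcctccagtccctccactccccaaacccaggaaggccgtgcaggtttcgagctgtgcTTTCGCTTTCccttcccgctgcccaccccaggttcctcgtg
Erap1: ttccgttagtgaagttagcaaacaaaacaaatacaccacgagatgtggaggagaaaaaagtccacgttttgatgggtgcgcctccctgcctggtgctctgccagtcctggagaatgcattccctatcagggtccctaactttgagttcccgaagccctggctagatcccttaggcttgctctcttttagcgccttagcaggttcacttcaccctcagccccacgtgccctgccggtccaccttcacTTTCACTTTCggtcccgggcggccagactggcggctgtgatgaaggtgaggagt

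Tap1 and Psmb9 start back to back in the MHC region and share their upstream bases. The start of Tap1 on the plus strand and that of Psmb9 on the minus strand are separated by 225 bases, which are in capitals in the Tap1 window at chr17:34187306-34187605. Neither motif was found in the windows of this pair.
Tap1: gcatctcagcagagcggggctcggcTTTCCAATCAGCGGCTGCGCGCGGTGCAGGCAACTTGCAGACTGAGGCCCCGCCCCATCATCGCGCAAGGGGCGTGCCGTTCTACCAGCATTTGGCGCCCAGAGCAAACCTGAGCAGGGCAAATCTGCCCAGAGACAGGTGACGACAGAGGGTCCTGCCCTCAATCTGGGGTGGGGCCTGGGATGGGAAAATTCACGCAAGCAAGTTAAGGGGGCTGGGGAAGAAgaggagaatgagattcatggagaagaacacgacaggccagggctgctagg

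None of the 57 proteasome and class I processing genes passed the test between Ly-6C-negative and Ly-6C-positive cells. With limma fitted over all genes, 0 of 57 had an adjusted p under 0.05, where 0.145% of all genes were called (0.1% upward and 0.0451% downward in the Ly-6C-negative arrays), and their adjusted p ran from 0.742 to 0.999. At an unadjusted p under 0.05 the count was also 0 of 57, where 6.71% of all genes passed, and it was 0 with the replicate number as a block, where 7.31% passed. The differences lay between -0.16, for Psmb1, and 0.14, for Psmd7. The 95% interval of the difference, taken gene by gene from the limma fit and not adjusted for the number of genes, stayed within 0.5 on either side of 0, or 1.41-fold, for 56 of the 57. Over all genes this held for 97.3%, so the narrow intervals are not particular to the proteasome. The exception was Psmg3, a chaperone of proteasome assembly, with an interval from -0.33 to 0.51. These are bulk samples, in which fewer cells of a type and less RNA per cell cannot be told apart.

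**Figure D1:**
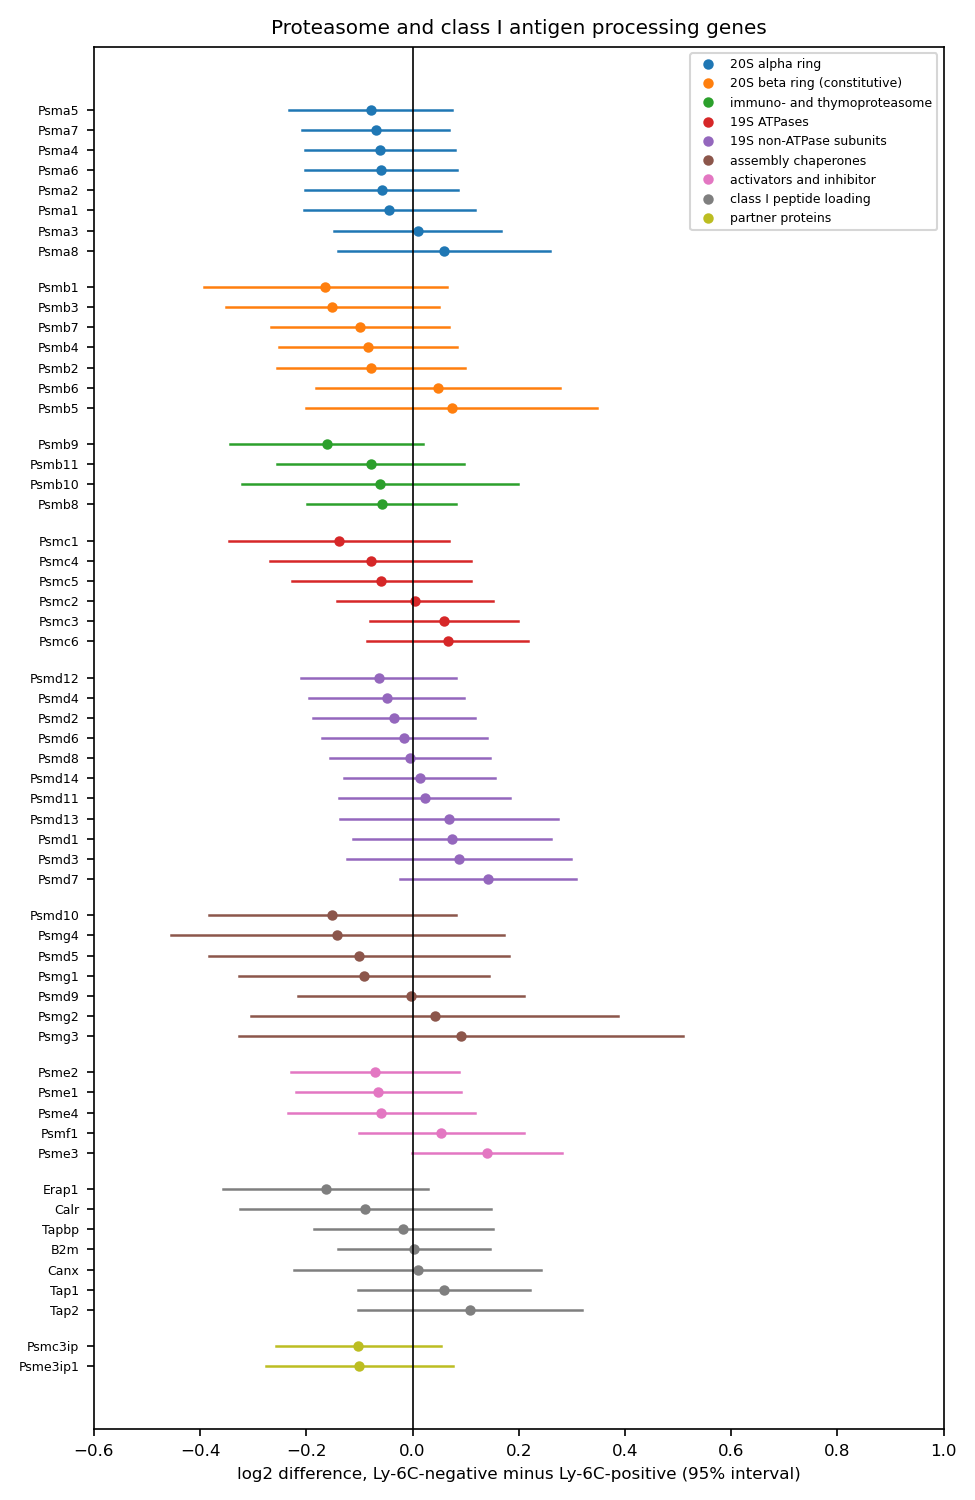
Differences of the 57 genes by role (y axis) on the log2 scale (x axis, Ly-6C-negative minus Ly-6C-positive). Points are limma estimates from 3 arrays per group and lines are 95% intervals; every interval includes 0, and the widest, that of Psmg3, runs from -0.33 to 0.51.

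The median difference of the 57 genes was -0.058, against -0.0048 over all genes. Of the 57, 21 lay above 0 and 36 below, or 63.2% below against 52.2% of all genes. Without Ly-6C-negative replicate 3 the median was -0.016 (-0.059 to -0.016 over the arrays left out in turn). The groups were free of overlap in 6 of the 57 genes, or 10.5%, against 12.6% of all genes (6.12% with the Ly-6C-negative arrays on top and 6.5% with them below). Psme3 and Psmc3 were the pair with all Ly-6C-negative arrays on top, and Psma4, Psma7, Psmb8 and Erap1 the ones with all of them below.

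The catalytic subunits of the immunoproteasome, Psmb8, Psmb9 and Psmb10, did not pass the test. Psmb8, which replaces Psmb5 and cuts after bulky hydrophobic residues, measured 10.70, 10.71 and 10.74 in Ly-6C-positive replicates 1, 2 and 3 and 10.68, 10.68 and 10.61 in the Ly-6C-negative ones. The groups did not overlap, with the Ly-6C-negative arrays lower, and the difference was -0.058 (standard error 0.063; limma adjusted p = 0.919), and the interval ran from -12.8% to 5.87% of the Ly-6C-positive level. Psmb9, which replaces Psmb6, measured 11.91, 12.01 and 11.99 against 11.97, 11.74 and 11.72. Ly-6C-negative replicates 2 and 3 were its lowest arrays, while Ly-6C-negative replicate 1 lay among the Ly-6C-positive values. Its difference of -0.16 (standard error 0.081; limma adjusted p = 0.795) was the largest of the catalytic subunits, with an interval from -0.34 to 0.020. Psmb10, which replaces Psmb7, measured 9.57, 9.51 and 9.69 against 9.53, 9.77 and 9.28, so that its highest and its lowest array were both Ly-6C-negative. The difference was -0.061 (standard error 0.12; limma adjusted p = 0.960). Psmb11, the catalytic subunit of the thymoproteasome of cortical thymic epithelium, measured 6.51, 6.41 and 6.5 against 6.30, 6.35 and 6.54, a difference of -0.079 (limma adjusted p = 0.913) between overlapping groups. The files give no detection call, so whether its signal lies above background was not tested.

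The groups overlapped for each of the constitutive partners. Psmb5 measured 9.92, 10.14 and 10.23 against 10.19, 10.39 and 9.93, a difference of 0.074 (limma adjusted p = 0.950). Psmb6 measured 10.49, 10.58 and 10.76 against 10.68, 10.82 and 10.47, a difference of 0.047 (limma adjusted p = 0.966). For both, Ly-6C-negative replicate 2 was the highest array, and Ly-6C-negative replicate 3 lay with Ly-6C-positive replicate 1 at the bottom. Psmb7 measured 10.44, 10.43 and 10.37 against 10.41, 10.35 and 10.19, a difference of -0.099 (limma adjusted p = 0.885), with Ly-6C-negative replicate 3 apart below.

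Exchange of catalytic subunits was also looked at within each array, as the log2 value of the immunoproteasome subunit minus that of its partner. Such a value compares arrays with each other and does not give the ratio of the transcripts, since probe sets differ in brightness. This comparison of 3 pairs was added after the values were seen. Psmb9 minus Psmb6 was 1.43, 1.43 and 1.24 in Ly-6C-positive replicates and 1.29, 0.93 and 1.25 in Ly-6C-negative ones. The groups overlapped and their means differed by -0.21 (exact permutation test, 2-sided p = 0.3, adjusted p = 0.6 over 3 pairs). Psmb8 minus Psmb5 was 0.62 ± 0.15 (SD, n = 3) against 0.49 ± 0.20 (SD, n = 3), or -0.13 between groups (exact permutation test, 2-sided p = 0.4, adjusted p = 0.6). Psmb10 minus Psmb7 was -0.83 ± 0.13 (SD, n = 3) against -0.79 ± 0.18 (SD, n = 3), or 0.038 between groups (exact permutation test, 2-sided p = 0.7, adjusted p = 0.7). With 3 arrays against 3 the smallest p that this test can give is 0.1.

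**Figure D2:**
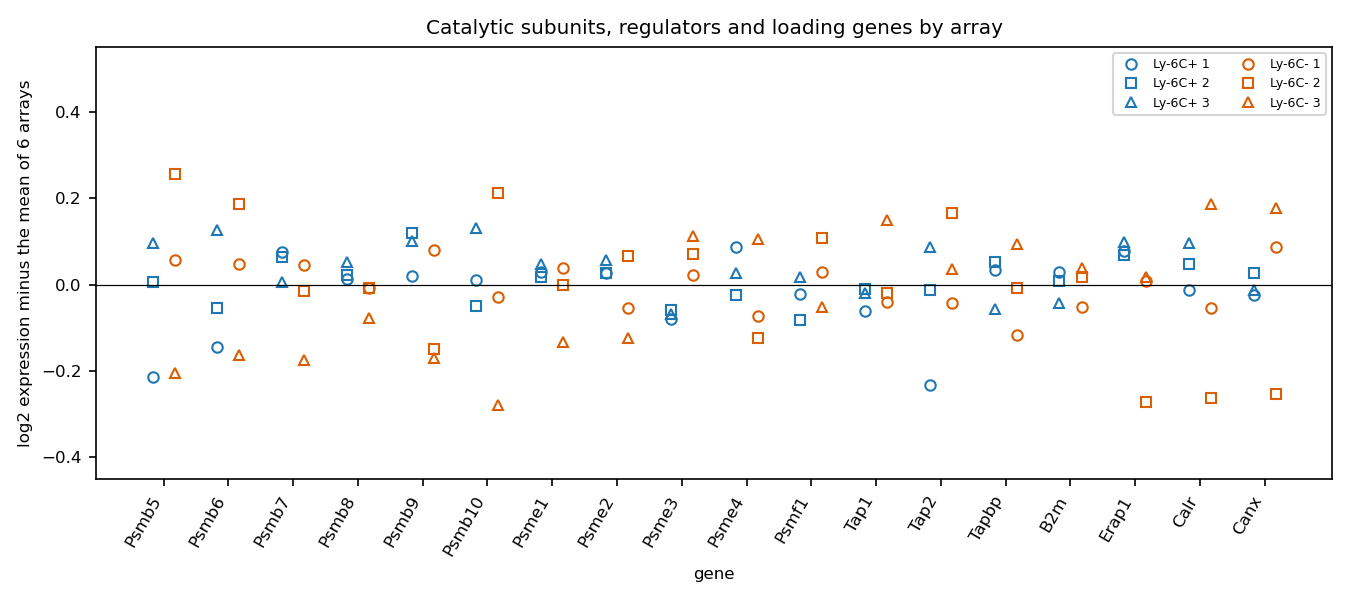
Log2 expression of 18 genes on each array minus the gene's mean over the 6 arrays (y axis), by gene (x axis). Blue symbols are Ly-6C-positive and orange symbols Ly-6C-negative arrays, with the replicate given by the shape; Psme3 has all orange symbols above the blue ones, and Ly-6C-negative replicates 2 and 3 are the outermost symbols for Psmb10, Calr and Canx.

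The other subunits of the barrel gave small differences. Of the 8 alpha subunits, 6 lay below 0 and 2 above, with a median of -0.059 and a range from -0.079 to 0.059. Psma7 measured 11.51, 11.49 and 11.49 against 11.45, 11.44 and 11.40, and Psma4 measured 10.60, 10.58 and 10.61 against 10.49, 10.55 and 10.58. In both there was no overlap, with the Ly-6C-negative arrays lower and differences of -0.070 and -0.062 (limma adjusted p of 0.902 and 0.915). Psma5 had the largest difference of the ring, at -0.079 (limma adjusted p = 0.902), with 10.83, 10.87 and 10.78 against 10.78, 10.80 and 10.66. The groups overlapped there, as they did for Psma1, Psma2, Psma3 and Psma6, whose differences ran from -0.059 to 0.010. Psma8, an alpha subunit of the testis proteasome, lay between 4.49 and 4.75 on all arrays, with a difference of 0.059. It was 1 of the 2 above 0, and whether its signal lies above background was not tested.

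Of the 7 constitutive beta subunits, 5 lay below 0 and 2 above, with a median of -0.084. Psmb1 measured 10.57, 10.69 and 10.73 against 10.37, 10.73 and 10.39, and Psmb3 measured 10.55, 10.66 and 10.68 against 10.49, 10.64 and 10.31. In each, Ly-6C-negative replicate 2 stood at the level of the Ly-6C-positive arrays and the groups overlapped. The differences were -0.16 with a standard error of 0.10 and -0.15 (standard error 0.089; limma adjusted p of 0.842 and 0.838). Without Ly-6C-negative replicate 2 the difference of Psmb1 had the smallest adjusted p of the 57 genes under any alternative, at 0.311. Psmb4 and Psmb2 had differences of -0.084 and -0.079 (limma adjusted p: 0.902 and 0.914).

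None of the cap genes passed the test either. The 6 ATPases, which unfold proteins, were split evenly around 0, from -0.14 for Psmc1 to 0.066 for Psmc6. Psmc1 measured 10.49, 10.58 and 10.64 against 10.56, 10.24 and 10.50, with Ly-6C-negative replicate 2 apart below and a limma adjusted p of 0.858. Psmc3 measured 9.84, 9.87 and 9.85 against 9.92, 9.94 and 9.87. Its groups did not overlap, and the difference was 0.059 (standard error 0.062; limma adjusted p = 0.917). Psmc6 measured 10.17, 10.15 and 10.14 against 10.25, 10.28 and 10.13, overlapping groups with a limma adjusted p of 0.917. Psmc4, Psmc5 and Psmc2 differed by -0.079, -0.059 and 0.0048.

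Among the 11 non-ATPase subunits 6 lay above 0 and 5 below, with a median of 0.013. Psmd7, the partner of the deubiquitinase Psmd14 in the lid of the cap, measured 9.20, 9.36 and 9.17 against 9.33, 9.38 and 9.44. Its difference of 0.14 (standard error 0.074; limma adjusted p = 0.811) was the highest of all 57 genes, and Ly-6C-positive replicate 2 lay within the Ly-6C-negative range. Psmd14 itself differed by 0.013, and Psmd4, which binds ubiquitin chains, by -0.048. The lid subunits Psmd12 and Psmd3 had differences of -0.064 and 0.087 (limma adjusted p: 0.916 and 0.919). Psmd12 measured 10.21, 10.27 and 10.27 against 10.20, 10.13 and 10.23, and Psmd3 measured 7.41, 7.59 and 7.47 against 7.44, 7.77 and 7.52. Both sets of arrays overlapped. The scaffold subunits Psmd1 and Psmd2 differed by 0.074 and -0.035, and Psmd6, Psmd8, Psmd11 and Psmd13 by -0.016 to 0.069.

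Among the activators, Psme3 came nearest to the test in the fit reported here. It encodes PA28γ, a nuclear activator that opens the barrel without ubiquitin. Psme3 measured 9.54, 9.56 and 9.55 in Ly-6C-positive replicates, 9.55 ± 0.0084 (SD, n = 3), and 9.64, 9.69 and 9.73 in Ly-6C-negative ones, 9.69 ± 0.047 (SD, n = 3). All Ly-6C-negative arrays lay above all Ly-6C-positive ones, and the difference was 0.14 (standard error 0.063; limma adjusted p = 0.742). The interval of the difference ran from -0.00090 to 0.28. Psme1 and Psme2, the interferon-inducible subunits of the activator PA28αβ, lay slightly below 0 at -0.064 and -0.071 (limma adjusted p of 0.919 and 0.913). Psme1 measured 11.57, 11.56 and 11.59 against 11.58, 11.54 and 11.41, and Psme2 measured 10.26, 10.26 and 10.29 against 10.18, 10.30 and 10.11. In both, Ly-6C-negative replicate 3 was the lowest array and the groups overlapped. A further probe set carries the symbols of both Psme2 and its copy Psme2b and differed by 0.043, and its value cannot be assigned to either gene. Psme4, which encodes the activator PA200, measured 9.49, 9.38 and 9.43 against 9.33, 9.28 and 9.51, a difference of -0.059 (limma adjusted p = 0.940). Psmf1, which encodes the inhibitor PI31, measured 7.41, 7.35 and 7.45 against 7.46, 7.54 and 7.38, a difference of 0.054 (limma adjusted p = 0.935). The arrays of the groups overlapped for both.

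The assembly chaperones varied most between replicates. The median of their standard deviations within groups was 0.21, against 0.084 over the 57 genes and 0.095 over all genes. Psmg1, Psmg2, Psmg3 and Psmg4 help the alpha ring to form, and Psmd5, Psmd9 and Psmd10 the ring of ATPases. Psmg3 measured 6.69, 6.92 and 6.98 against 6.94, 7.41 and 6.52, Psmg2 measured 8.36, 8.69 and 8.58 against 8.60, 8.91 and 8.23, and Psmg4 measured 8.61, 8.70 and 8.62 against 8.57, 8.79 and 8.13. In each of these, the highest and the lowest of the 6 arrays were Ly-6C-negative replicates 2 and 3. The group differences were 0.091, 0.042 and -0.14 (limma adjusted p of 0.964, 0.983 and 0.913). Psmg1 measured 9.26, 9.58 and 9.44 against 9.38, 9.48 and 9.16, and Psmd10, also known as gankyrin, 10.21, 10.44 and 10.43 against 10.42, 10.13 and 10.07. Both sets overlapped, with differences of -0.091 and -0.15 (limma adjusted p of 0.925 and 0.872). Psmd5 measured 8.11, 8.16 and 8.09 against 8.27, 7.69 and 8.09, so that here Ly-6C-negative replicate 2 was the low array, and Psmd9 differed by -0.0029.

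Class I peptide loading genes did not pass either, and 4 of 7 lay above 0, with a median of 0.0025. B2m, the light chain of every class I molecule, measured 12.75, 12.73 and 12.68 against 12.67, 12.74 and 12.76. The difference was 0.0025 (standard error 0.064; limma adjusted p = 0.999), and the interval ran from -9.33% to 10.7% of the Ly-6C-positive level. Tap1 and Tap2, which together form the peptide transporter, lay above 0 at 0.059 and 0.11 (limma adjusted p of 0.931 and 0.902). Tap1 measured 8.64, 8.69 and 8.68 against 8.66, 8.68 and 8.85, and Tap2 measured 8.25, 8.47 and 8.57 against 8.44, 8.65 and 8.52. Groups overlapped in both. Of the back-to-back pair shown above, Tap1 thus had a value above 0 and Psmb9 one below 0, and neither passed.

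Erap1, the aminopeptidase that trims peptides in the endoplasmic reticulum, had the lowest value of the loading genes. It measured 9.70, 9.69 and 9.72 against 9.63, 9.35 and 9.64, and the groups did not overlap, with Ly-6C-negative lower. The difference was -0.16 (standard error 0.086; limma adjusted p = 0.811), and Ly-6C-negative replicate 2 stood far below the others. Tapbp, which encodes tapasin, measured 8.74, 8.76 and 8.65 against 8.59, 8.70 and 8.80, a difference of -0.018 (limma adjusted p = 0.987). Calr, the gene of calreticulin, measured 10.68, 10.74 and 10.79 against 10.64, 10.43 and 10.88, and Canx, the gene of calnexin, 11.41, 11.46 and 11.42 against 11.52, 11.18 and 11.61. For both chaperones the highest and lowest arrays were Ly-6C-negative replicates 3 and 2, and the differences were -0.090 and 0.0097 (limma adjusted p of 0.929 and 0.996).

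A pair of genes met the symbol rule without encoding proteasome subunits. Psmc3ip encodes a partner of recombination enzymes in meiosis, and Psme3ip1 a protein that binds PA28γ. Psmc3ip measured 7.18, 7.25 and 7.21 against 7.02, 7.19 and 7.12, and Psme3ip1 measured 8.70, 8.85 and 8.96 against 8.73, 8.77 and 8.71. The groups overlapped, and both had a difference of -0.10 (limma adjusted p: 0.868 and 0.888).

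The Ly-6C-negative arrays differed more among themselves over the 57 genes than the Ly-6C-positive ones. The size of the difference between Ly-6C-negative replicates 2 and 3 exceeded the group difference in 46 of 57 genes, or 80.7%, against 69.2% of all genes. For the other pairs of Ly-6C-negative arrays this held in 39 genes each, or 68.4%, against 63.4% to 68.3% of all genes. For the pairs of Ly-6C-positive arrays it held in 25 to 28 genes, or 43.9% to 49.1%, against 58.5% to 61.1% of all genes. Ly-6C-negative replicate 3 held the lowest value in 27 of 57 genes, or 47.4%, against 19.9% of all genes, and Ly-6C-negative replicate 2 the highest in 18, or 31.6%, against 20.6%. By role, the median deviation on Ly-6C-negative replicate 3 was -0.23 for the assembly chaperones, -0.18 for the constitutive beta ring, -0.12 for the immunoproteasome and thymoproteasome subunits and -0.078 for the alpha ring. The class I loading genes went the other way on that array, at 0.093, and 5 of the 7 had their highest value there. The same arrays lie at the ends of the first principal component of all genes, which holds 34.6% of the variance, with scores of 19.9 for Ly-6C-negative replicate 2 and -10.0 for replicate 3. Its part in these values was not tested.

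**Figure D3:**
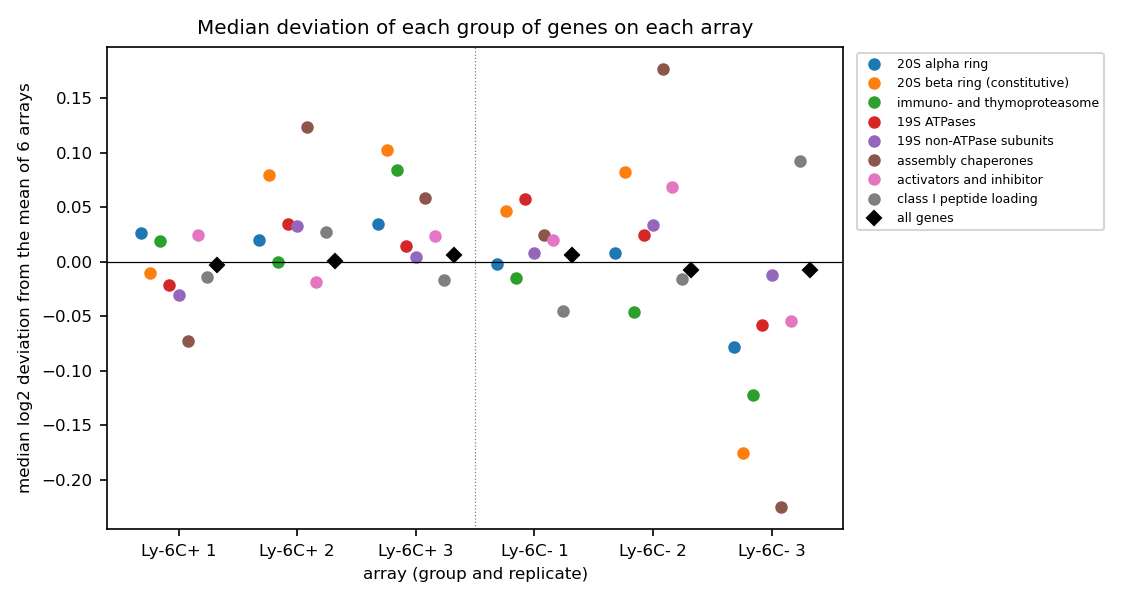
Median log2 deviation from the mean of the 6 arrays (y axis) for the genes of each role on each array (x axis), with all genes as black diamonds. Ly-6C-negative replicate 3 is low for the assembly chaperones (-0.23) and the constitutive beta ring (-0.18) and high for class I loading genes (0.093), while all genes stay near 0.

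**Figure D4:**
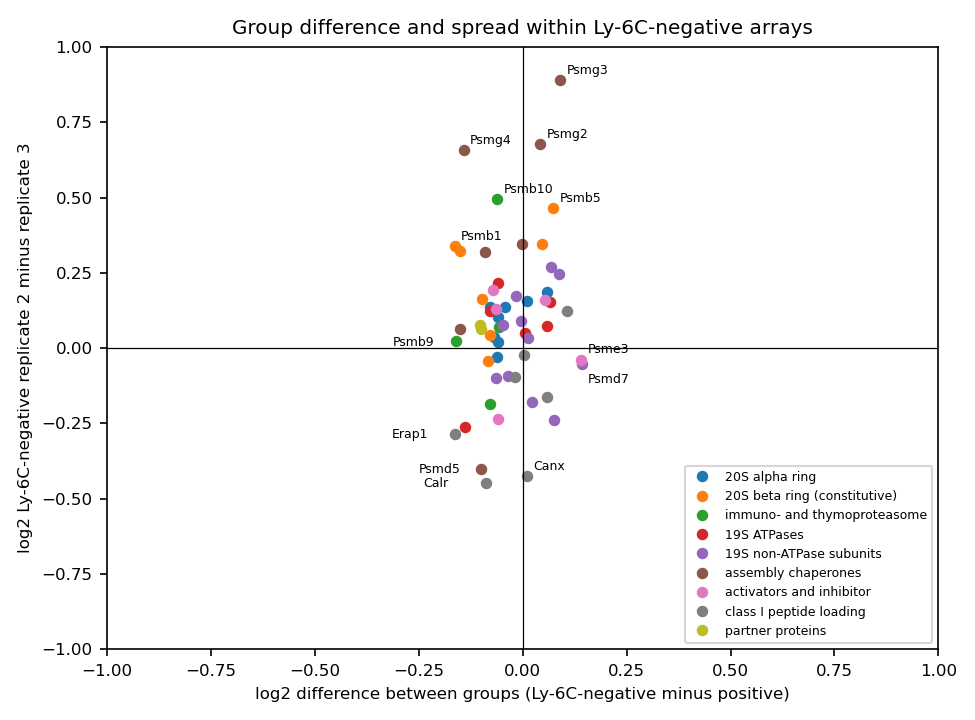
Each point is 1 of the 57 genes, with the log2 group difference on the x axis and the log2 difference between Ly-6C-negative replicates 2 and 3 on the y axis, both on the same scale. Points spread further up and down, from -0.45 for Calr to 0.89 for Psmg3, than they do sideways.

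Several probe sets measured 5 of the genes, and they did not always give the same difference. Psmc1 differed by -0.14 in the probe set used and by -0.0081 in the other. Psmd2 differed by -0.035 and 0.012, and Psma3 by 0.0095, -0.0047 and 0.017 over 3 probe sets. Psmb3, at -0.15 and -0.14, and Psma5, at -0.079 and -0.080, gave alike values. None of the 63 probe sets of the 57 genes passed when every probe set was tested (lowest limma adjusted p = 0.753). At an unadjusted p under 0.05 the count was 1 of 63, where 6.59% of all probe sets passed. Of the 3 probe sets that share a symbol of these genes with another gene, a pair is listed under both Tapbp and the ribosomal protein gene Rps3a1, and differed by -0.027 and -0.034.

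Some of the heavy chains that the loading genes serve, H2-K1 and H2-D1 among them, are listed at probe sets with several symbols. Of 7 such probe sets none passed over all probe sets, at differences from -0.22 to 0.20 (lowest limma adjusted p = 0.671), and 2 had an unadjusted p under 0.05, where 6.59% of all probe sets did. Probe set 10444780, listed under H2-D1, H2-K1 and LOC547349, measured 10.91, 11.02 and 11.02 against 10.76, 10.63 and 10.90, with all Ly-6C-negative arrays lower. Probe set 10450694, listed under H2-T9, H2-T22 and H2-T10, measured 9.23, 9.42 and 9.33 against 9.54, 9.53 and 9.50, with all of them higher. Their limma adjusted p were 0.699 and 0.671. Probe set 10450075, with the same symbols as 10444780, also had all Ly-6C-negative arrays lower (difference -0.12, limma adjusted p = 0.815). Probe set 10444788, listed under H2-Q1 and H2-Bl, had all of them higher (difference 0.11, limma adjusted p = 0.835). Of all genes, 12.6% were free of overlap, and no such share was taken over all probe sets. Of the 7 probe sets, 5 had a difference below 0. Of 28 heavy chains and relatives in a written list, 15 had a probe set of their own, and 0 passed, with 1 at an unadjusted p under 0.05 (6.67%, against 6.71% of all genes) and a median difference of -0.029. That one was Cd1d2, one of the relatives, which measured 7.0, 7.20 and 7.11 against 6.74, 6.76 and 6.92 (difference -0.30, limma adjusted p = 0.455). It was also the only one of the 15 free of overlap (6.67%, against 12.6% of all genes). Cd1d1 differed by 0.17 (limma adjusted p = 0.811) and H2-M5 by -0.13 (limma adjusted p = 0.850).

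Other genes of the pathway were counted from written lists, and no member of these lists passed with limma in either direction. Of 23 measured trimming and loading factors, 14 lay above 0 and 1 had an unadjusted p under 0.05 (4.35%, against 6.71% of all genes). That was Tapbpl, a tapasin-like editor of class I peptides, which measured 8.26, 8.34 and 8.42 against 8.17, 7.98 and 8.14. All its Ly-6C-negative arrays lay below the Ly-6C-positive ones, and the difference was -0.24 (standard error 0.077; limma adjusted p = 0.578). Uggt1, which checks the folding of glycoproteins, and Thop1, a cytosolic peptidase, had differences of 0.13 and -0.13 (limma adjusted p: 0.753 and 0.811). Of the 23, 2 were free of overlap, or 8.70% against 12.6% of all genes. These were Tapbpl and, with the Ly-6C-negative arrays higher, Uggt1. Of 26 measured factors that associate with the proteasome or regulate its genes, 11 lay above 0. At an unadjusted p under 0.05 there were 0, where 6.71% of all genes passed. The nearest to the test were Ngly1, which deglycosylates Nfe2l1, the ubiquitin receptor Rad23b and Ubqln1, at -0.10, -0.091 and 0.087 (limma adjusted p of 0.878, 0.884 and 0.884). Of 14 measured genes of ubiquitin and its conjugation, 7 lay above 0 and 0 had an unadjusted p under 0.05, against the same 6.71%. Among the conjugating enzymes Ube2r2, Ube2n and Ube2g1 had differences of 0.12, -0.18 and 0.16 (limma adjusted p: 0.790, 0.798 and 0.801).

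Genes that control class I and immunoproteasome transcription were measured for 24 of 26 listed, 13 above 0, with 3 at an unadjusted p under 0.05, or 12.5% against 6.71% of all genes. Those were Ifnar2, a chain of the receptor for type I interferon, at 0.22, and Stat2 and Jak2, which carry interferon signals, at 0.19 and 0.22 (limma adjusted p of 0.641, 0.675 and 0.718). Ifnar2 measured 9.62, 9.58 and 9.40 against 9.71, 9.86 and 9.69, without overlap. Stat2 measured 8.42, 8.39 and 8.48 against 8.50, 8.64 and 8.72, also without overlap, while the arrays for Jak2 overlapped. Of the 24, 3 were free of overlap with the Ly-6C-negative arrays higher and 3 with them lower, or 25% against 12.6% of all genes. The lower ones were Irf1, Rfxank and Ifnar1, the other chain of the type I interferon receptor. Nlrc5, the activator of class I genes, and Irf1 had differences of -0.079 and -0.17 (limma adjusted p: 0.918 and 0.742); this pair was named after its values were seen. Of 29 measured interferon-stimulated genes, 18 lay below 0 and 5 had an unadjusted p under 0.05, or 17.2%. Oasl2 measured 8.28, 8.23 and 8.23 against 7.97, 8.0 and 7.83, and Iigp1 measured 9.85, 9.63 and 9.64 against 9.43, 9.39 and 9.30, both with all Ly-6C-negative arrays lower. Mx2 measured 7.07, 7.09 and 6.54 against 7.25, 7.30 and 7.15, with all of them higher. The differences were -0.31, -0.33 and 0.34 (limma adjusted p of 0.285, 0.357 and 0.693), so that these genes lay on both sides of 0. Of the 29, 7 were free of overlap, or 24.1% against 12.6% of all genes, 3 with the Ly-6C-negative arrays higher and 4 with them lower. In the proteasome and loading set, the 7 genes with an interferon element had a median difference of -0.064, against -0.058 for the 41 without. Of these 7, 1 lay above 0 and 6 below. The 7 genes with an antioxidant element had a median difference of -0.0029, against -0.059 for the 41 without, with 3 above 0 and 4 below. Neither contrast was tested.

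Ly-6C itself separated the groups. The probe set 10429568, listed under both Ly6c1 and Ly6c2, measured 11.58, 11.71 and 11.69 in Ly-6C-positive and 8.22, 8.69 and 8.55 in Ly-6C-negative replicates. The mean log2 value of 10 CD4 T cell markers lay between 10.9 and 11.1 on all arrays. That of 9 B cell markers lay between 5.13 and 5.20, that of 8 dendritic cell markers between 5.26 and 5.34, that of 10 monocyte, macrophage and neutrophil markers between 5.18 and 5.27, that of 8 stromal and endothelial markers between 6.73 and 6.86 and that of 3 erythrocyte and platelet markers between 5.27 and 5.48. None of these 6 lists had a member past the limma threshold. Markers of CD8 T cells averaged 6.63 to 6.79 on Ly-6C-positive and 6.27 to 6.41 on Ly-6C-negative arrays, with 1 of 5, Klrd1, lower past the threshold at -1.50. The lineage markers Cd8a and Cd8b1 stood at -0.029 and -0.12, with overlap. Markers of NK cells averaged 4.98 to 5.03 and 4.88 to 4.96, with 1 of 7, Gzma, lower at -0.69, while Eomes stood at 0.27 without overlap (limma adjusted p = 0.473) and Ncr1 and Klrb1c at -0.054 and 0.0083. Markers of regulatory T cells averaged 7.17 to 7.23 and 7.59 to 7.85, with 3 of 6, Izumo1r, Ctla4 and Ikzf2, higher. The others, Foxp3, Tnfrsf18 and Il2ra, stood at 0.013, -0.012 and 0.12, with overlap. Their part in the values of the 57 genes was not tested.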

How the data were processed

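The authors deposited log2 expression values of 28853 probe sets on 6 arrays. RMA and Partek are named per the submitters' processing notes, without version or role. RMA equalises the arrays' distributions, so a change shared by all transcripts cannot be seen. Per the labels' protocols, 50 ng of total RNA was amplified and 5 µg of cDNA was labelled with biotin. Values were used as deposited, from 2.47 to 13.6. The annotation gave 21789 probe sets 1 symbol and 1621 several, and 5443 had none listed. Of those with 1 symbol, 21698 were matched by Entrez ID to a current gene, whose symbol was used. The number of arrays limits the precision.

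The test was limma (version 3.58.1, R 4.3.3: lmFit, then eBayes; 2-sided, Benjamini-Hochberg over 19938 genes, adjusted p 0.05, no filter and no covariate). The comparison of catalytic pairs was added after the values were seen. The 57 genes, the lists and the rule for naming genes (all members; 3 with the smallest p per list) were chosen with earlier results of these data known. The steps were tested on simulated data.

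Both groups carry replicate numbers 1, 2 and 3. Same-numbered arrays deviated together from their group means, with r across genes of 0.129, 0.128 and 0.107, all above the bound of 0.1 for reading the numbers as pairs, so the number was tried as a block. The labels do not state the pairing. Figures were drawn with matplotlib 3.10.9. Promoters came from RefSeq's table; a further motif that was searched is not reported here, and no protein sequences were used here.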

Additional observations from a re-analysis of the deposited data

How the results depend on the processing

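No member passed under any alternative run: the replicate block, a second quantile normalization, array medians subtracted, no dim genes (56 of 57 genes left), every probe set, the mean of probe sets, trend and robust eBayes, array weights, an adjusted p of 0.1, and each array left out. Blocking on the replicate number left 0 of 57 past the threshold, with 41 genes called in all against 29, and it changed no call among the 57. The number of genes past the threshold was 45 with every probe set, 54 with array weights, and 5 to 47 with an array left out (5 without Ly-6C-negative replicate 1, 47 without Ly-6C-negative replicate 2). Members without overlap numbered 7 to 16 with an array left out (12.3% to 28.1%, against 20.8% to 27% of all genes). They numbered 5 after the second quantile normalization and 4 with array medians subtracted, against 6 as reported. The share of all genes was not taken for these normalizations, so the change cannot be set against it. The median difference of the 57 ran from -0.059 to -0.016 with an array left out, the latter without Ly-6C-negative replicate 3. Of the 57 differences, 23 changed sign under at least 1 of 13 alternatives, 12 without Ly-6C-negative replicate 2 and 10 without replicate 3. At an unadjusted p under 0.05, counts were 0 to 4, the highest without Ly-6C-negative replicate 2 (Psmb1, Psmb3, Psmd1 and Psmg4). Shares of all genes at that p were taken only for the reported fit, the replicate block and every probe set. The other counts have no such share beside them and show neither an excess nor a lack. The causes were not tested.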
